A study of Mus musculus with 4 samples.

Results

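The leukocyte immunoglobulin-like receptors (LILR) and the paired immunoglobulin-like receptors (PIR) of the mouse were examined in RNA from MLL-AF9 leukaemia. The members were the rows of the deposited expression table whose symbol begins with Lilr, Pira or Pirb and that reach at least 1 TPM (a length-normalized share of a library's transcripts) in at least 2 of the 4 libraries. Such a symbol was carried by 11 of the 24497 features listed, and 9 of them reached that level: Pirb, Lilrb4a, Lilr4b, Pira2, Lilra6, Pira4, Pira11, Pira6 and Lilra5. Each of these 9 was at or above 1 TPM in all 4 libraries, while Pira1 and Pira7 were listed at 0.01, the lowest value of the table, in every library and were not tested. All libraries came from CD45.2-enriched spleen cells of secondary recipient mice that had been irradiated with 320 rads and given primary MLL-AF9 leukaemia cells, a mouse model of acute myeloid leukaemia driven by the MLL-AF9 fusion. The PBS group (2 libraries) received the vehicle, and the CS1 group (2 libraries) received the compound CS1, an FTO inhibitor per the labels, intraperitoneally every second day for 20 days at 5 mg/kg; FTO removes m6A marks from RNA. CS1 replicate 2 is named CS2 in its treatment field but CS1 in its title, and was kept with CS1. The labels do not say whether the replicates came from separate mice, nor how many leukaemia clones were transplanted, so the p-values reflect the spread among these libraries, which may be technical, and clone and treatment cannot be told apart.

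LILR and PIR proteins are surface receptors of myeloid cells, B cells and mast cells with immunoglobulin domains outside the cell. The inhibitory forms carry immunoreceptor tyrosine-based inhibitory motifs (ITIMs) in their tails, which Src-family kinases phosphorylate and which then recruit the phosphatases SHP-1 and SHP-2. The activating forms have short tails and signal through the adaptor chain encoded by Fcer1g, so both forms can bind the same ligands, such as MHC class I, with opposite effects. Pirb encodes PIR-B, the inhibitory member of the pair, and Lilrb4a encodes gp49B, the mouse counterpart of human LILRB4, an inhibitory receptor of monocytic leukaemia cells. Lilr4b encodes gp49A, a close relative of gp49B that lacks ITIMs. The Pira genes and Lilra6 encode PIR-A proteins, and Lilra5 encodes another receptor of the activating class.

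Of the 9 tested receptors 6 were placed in the genome by their symbols. The sequences below are shown because the inhibitory Pirb and the activating Pira2 and Lilra6 have nearly the same sequence before their starts. In the GENCODE M21 annotation of GRCm38 (mm10), Pirb lies on chromosome 7 at 3711409 to 3720391 (minus strand), Pira2 at 3836812 to 3845051 and Lilra6 at 3908280 to 3915503, both on the same strand, and Lilra5 at 4237754 to 4243463 on the plus strand. Lilr4b (51480632 to 51486703) and Lilrb4a (51490956 to 51496611) are neighbours on the plus strand of chromosome 10. Each of these 6 genes is annotated as protein-coding, and none of their exons overlaps an exon of another tested feature. RefSeq promoter sequences (GRCm38.p6, 250 bases before to 50 after the gene's start) matched 6 of the 11 symbols. The 200 bases before the start are printed 5′ to 3′ on the gene's strand, with GAGGAAGT, a binding sequence of the myeloid transcription factor PU.1, in capitals; the motif was chosen after the sequences were seen.
Pirb, chr7:3720383-3720582, minus strand: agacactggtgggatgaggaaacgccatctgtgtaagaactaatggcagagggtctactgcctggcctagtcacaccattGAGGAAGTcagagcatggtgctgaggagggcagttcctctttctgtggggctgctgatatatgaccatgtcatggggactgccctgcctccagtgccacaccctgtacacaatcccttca
Pira2, chr7:3845052-3845251, minus strand: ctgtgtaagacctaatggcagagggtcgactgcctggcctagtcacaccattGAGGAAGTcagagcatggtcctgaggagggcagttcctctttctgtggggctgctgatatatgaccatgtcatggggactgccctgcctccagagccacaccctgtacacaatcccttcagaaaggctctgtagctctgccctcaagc
Lilra6, chr7:3915502-3915701, minus strand: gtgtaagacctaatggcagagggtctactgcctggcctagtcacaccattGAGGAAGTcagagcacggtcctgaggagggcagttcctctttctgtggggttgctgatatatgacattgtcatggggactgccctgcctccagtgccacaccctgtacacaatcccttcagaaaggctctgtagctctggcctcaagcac
Lilra5, chr7:4237554-4237753, plus strand: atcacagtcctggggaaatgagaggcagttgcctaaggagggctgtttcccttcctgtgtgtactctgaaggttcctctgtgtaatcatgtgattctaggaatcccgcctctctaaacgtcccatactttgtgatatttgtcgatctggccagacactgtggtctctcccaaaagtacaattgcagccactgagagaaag
Lilr4b, chr10:51480412-51480611, plus strand: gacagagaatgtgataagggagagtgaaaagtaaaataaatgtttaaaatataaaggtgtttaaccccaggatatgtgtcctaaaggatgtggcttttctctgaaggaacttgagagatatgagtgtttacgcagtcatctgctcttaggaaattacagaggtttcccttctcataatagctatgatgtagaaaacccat
The Pirb window aligned to that of Pira2 over 272 of the 300 bases with 97.06% identity and to that of Lilra6 over 270 bases with 95.93%, and the difference in aligned length comes from annotated starts that lie at different points. Against Lilra5 the identity of the Pirb window was 68.58% over 226 bases, and against Lilr4b 64.4% over 250 bases. GAGGAAGT was found on the gene's own strand of Pirb, Pira2 and Lilra6, beginning 120, 148 and 150 bases before the annotated start, and also in Pira1, but on neither strand of Lilra5 and Lilr4b. Of all 32851 promoter windows of the same length 3.202% hold it on either strand. The Pira1 window aligned to that of Pira2 over 272 bases with 100% identity, yet Pira1 was listed at 0.01 TPM in every library. A match is a description of the letters and not of binding.

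The likeness of the genes also limits how reads can be told apart. Of the 50-base words in the annotated transcripts of Pira2, 92.95% also occur in transcripts of another gene, most often Gm15922, a gene model of the same cluster. The share was 33.97% for Pirb, 31.29% for Lilra6, 46.69% for Lilrb4a and 24.55% for Lilr4b, whereas Lilra5 shared none (0 of 2060 words). The values of single PIR-A genes and of the gp49 pair therefore depend on how shared reads were divided, and sums over the family are given beside them. Those sums hold only the rows with receptor symbols, so they do not cover words shared with gene models outside them. Such models were the top sharers for Pira2 (Gm15922, 82.55% of its words), Lilrb4a (Gm49339, 33.68%) and Pirb (Gm14548, 17.66%). Among the 6 annotated genes Lilra5 is the one that does not face this limit.

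All 9 receptors were lower in CS1 than in PBS. Their log2 fold changes, taken on log2(TPM + 1), ran from -2.25 for Pira11 to -0.42 for Pira6 with a median of -0.84, and the largest of their adjusted p-values was 0.00109 (limma, two-sided, Benjamini-Hochberg adjustment over the 11866 features tested). Over all tested features 67% were called at an adjusted p under 0.05, 31.6% lower and 35.3% higher, and the median log2 fold change was 0.04. Falls were more common among abundant features. Of the 3947 features with a mean of at least 50 TPM in either group, 47.7% were called lower, with a median of -0.07. All receptors but Lilra5 reached that level. A fall of at least 0.5 on the log2 scale was called for 8 of the 9 receptors, against 11.9% of all tested features, and a fall of at least 1 for 3 of the 9 (Pira11, Lilra5 and Lilra6), against 2.44%. Both CS1 libraries lay below both PBS libraries for each of the 9, against 39.3% of all tested features. In bulk RNA, fewer cells that carry a receptor and less receptor RNA per cell cannot be told apart. With 2 libraries in each group an exact permutation test of a single gene cannot give a two-sided p below 0.333, so each call leans on the spread that limma shares across features.

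**Figure D1:**
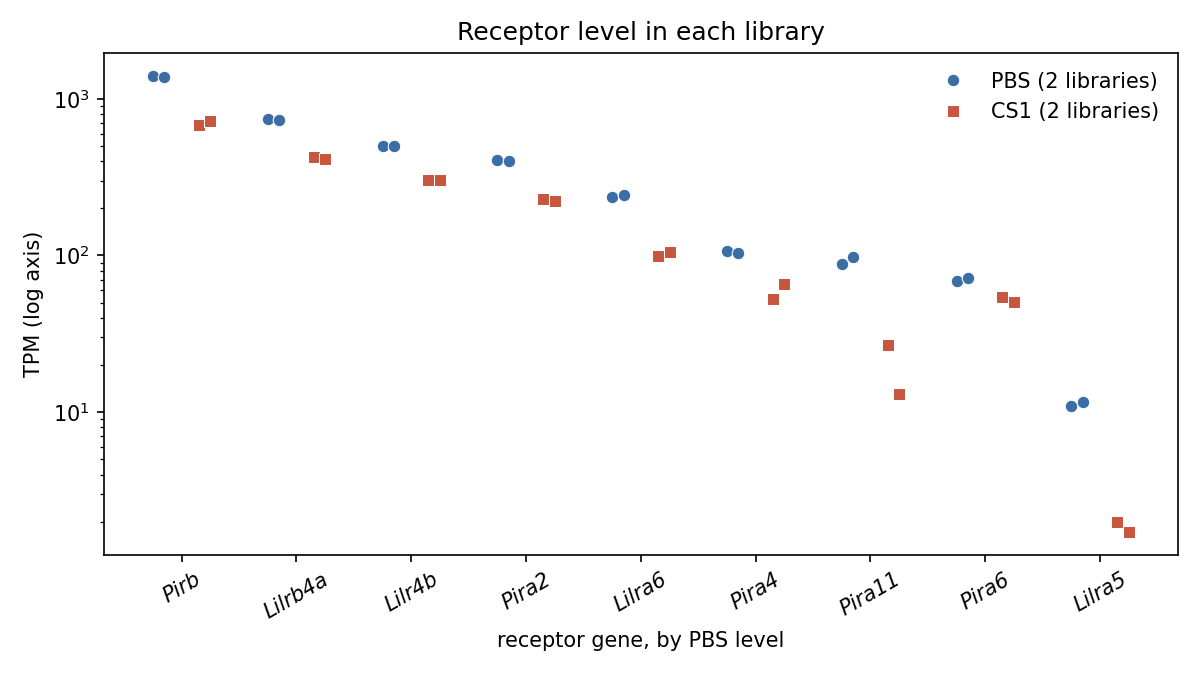
TPM (log axis) of the 9 receptor genes in each of the 4 libraries, ordered by the PBS level, with circles for PBS and squares for CS1. For each gene both squares lie below both circles, from Pirb at 1401 and 1384 TPM in PBS down to Lilra5 at 1.98 and 1.72 TPM in CS1.

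Markers of several cell types differed in the same comparison, which in bulk RNA does not separate a change in cell numbers from a change in the state of the cells. Their counts are to be read beside the 31.6% lower and 35.3% higher over all tested features. The fixed list of monocyte and macrophage markers had 14 genes, of which 10 were tested, 6 lower and 3 higher in CS1, and its summed level was 15351 and 15491 TPM in PBS and 7457 and 7468 TPM in CS1, most of it the lysozyme gene Lyz2. Neutrophil markers mostly moved the other way, with 6 of 9 higher and 2 lower. They summed to 4896 to 4972 TPM in PBS and 17859 to 17876 TPM in CS1. Most of these sums came from S100a8, S100a9, Ngp and Camp. Mmp9 and Retnlg were also higher, whereas Ly6g was not called and Cxcr2 and Ltf were lower. B cell markers, a lineage that also carries PIR-B, summed to 56.7 to 58.4 TPM in PBS and 34.3 to 37.9 TPM in CS1, with 5 of 7 tested markers lower and none higher. Mast cell and basophil markers, a lineage that carries gp49B, summed to 8.85 to 10.1 TPM in PBS and 53.0 to 56.1 TPM in CS1, most of it the basophil protease gene Mcpt8 (8.05 and 6.85 TPM against 52.4 and 49.4 TPM). Only 2 of these 8 markers were tested, both higher, with Fcer1a, Tpsb2 and Cma1 listed at 0.01 in every library. Of 8 dendritic cell markers 7 were tested, 6 higher and 1 lower, with sums of 91.1 to 94.6 TPM and 120 to 125 TPM. Of the 6 markers fixed for the leukaemia cells 4 were higher and 2 lower, with a median log2 fold change of 0.74. Ptprc, which encodes CD45, and Itgam, the myeloid integrin chain CD11b, fell by about as much as the receptors, with ratios of 0.541 and 0.516. Their lowest values in any library were 314.5 and 504 TPM. The progenitor and leukaemia genes Hoxa9, Meis1, Kit and Flt3 rose, with ratios of 2.34, 1.40, 3.64 and 2.00. The CD45.2 allele is not visible in gene-level values. The part of these marker shifts in the receptor falls was not tested.

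Among the inhibitory class, Pirb was the most abundant receptor, at 1401 and 1384 TPM in the PBS libraries and 684 and 722 TPM in the CS1 libraries. Both CS1 values lie below both PBS values, and the groups lie far apart compared with the distance between replicates. The mean fell from 1393 ± 11.5 to 703 ± 27.0 TPM (SD, n = 2 each), a ratio of 0.505, with a log2 fold change of -0.99 ± 0.03 (SE; 95% interval -1.06 to -0.91; limma adjusted p = 5.77e-06). In rank of level among the tested features Pirb stood at 105 in PBS and at 208 in CS1.

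Lilrb4a stood at 746 and 737 TPM in PBS and at 423 and 414 TPM in CS1, again with no overlap. The ratio of means was 0.565, and the interval of the log2 fold change ran from -0.88 to -0.77. Its neighbour Lilr4b stood at 503 and 498 TPM in PBS and at 304 and 303 TPM in CS1. The fall of Lilr4b was smaller, with a ratio of 0.606 and a log2 fold change of -0.72 ± 0.02 (SE, limma adjusted p = 4.66e-06). Lilrb4a was 1.48 and 1.48 times as abundant as Lilr4b in PBS and 1.40 and 1.37 times in CS1, so the ratio was lower in both CS1 libraries. This difference between the 2 genes was not tested.

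The ratio of Pirb to Lilrb4a was 1.88 in both PBS libraries and 1.61 and 1.75 in CS1. Both CS1 ratios lie below the PBS ratios, and the 2 CS1 libraries differ from each other by nearly as much as the higher of them differs from PBS. That ratio was not tested either.

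The activating class fell as well, with members that differed widely in size. Pira2, the most abundant of them, stood at 409 and 400 TPM in PBS and 229 and 222 TPM in CS1. The groups did not overlap, and the ratio of means was 0.558 (log2 fold change -0.84 ± 0.03, SE, limma adjusted p = 6.04e-06), close to the ratio of Lilrb4a. Lilra6, which RefSeq also lists as Pira3, stood at 237 and 243 TPM in PBS and at 99.8 and 106 TPM in CS1. It fell further than Pira2, with a ratio of 0.429 and an interval of the log2 fold change from -1.30 to -1.13.

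Lilra5 was the least abundant tested member and showed the lowest ratio, 0.164. It stood at 11.0 and 11.6 TPM in PBS and at 1.98 and 1.72 TPM in CS1, so both CS1 libraries held little of it. Its log2 fold change was -2.11 ± 0.10 (SE; 95% interval -2.37 to -1.86; limma adjusted p = 2.56e-05), and the pseudocount of 1 TPM understates the fall of a gene at this level. With a pseudocount of 0.1 TPM the log2 fold change was -2.55.

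Of the remaining PIR-A genes, Pira4 and Pira11 varied between the CS1 libraries and Pira6 did so less. Pira6 stood at 68.8 and 71.9 TPM in PBS and at 54.3 and 50.5 TPM in CS1, the smallest fall of the family (ratio 0.745). Pira4 stood at 107 and 104 TPM in PBS and at 52.9 and 65.4 TPM in CS1. Pira11 stood at 88.8 and 98.0 TPM in PBS and at 26.9 and 13.0 TPM in CS1, and differed widely between the libraries there. In the CS1 libraries Pira4 was higher where Pira11 was lower. Added together, a sum looked at after the values were seen, these 2 genes stood at 196 and 202 TPM in PBS and at 79.8 and 78.5 TPM in CS1, so the sum varied far less between the CS1 libraries than either gene. The calls of Pira4 and Pira11 were lost when all 24497 features were fitted without a filter on low values (limma adjusted p = 0.0556 and 0.0774), while those of the other 7 receptors held there.

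**Figure D2:**
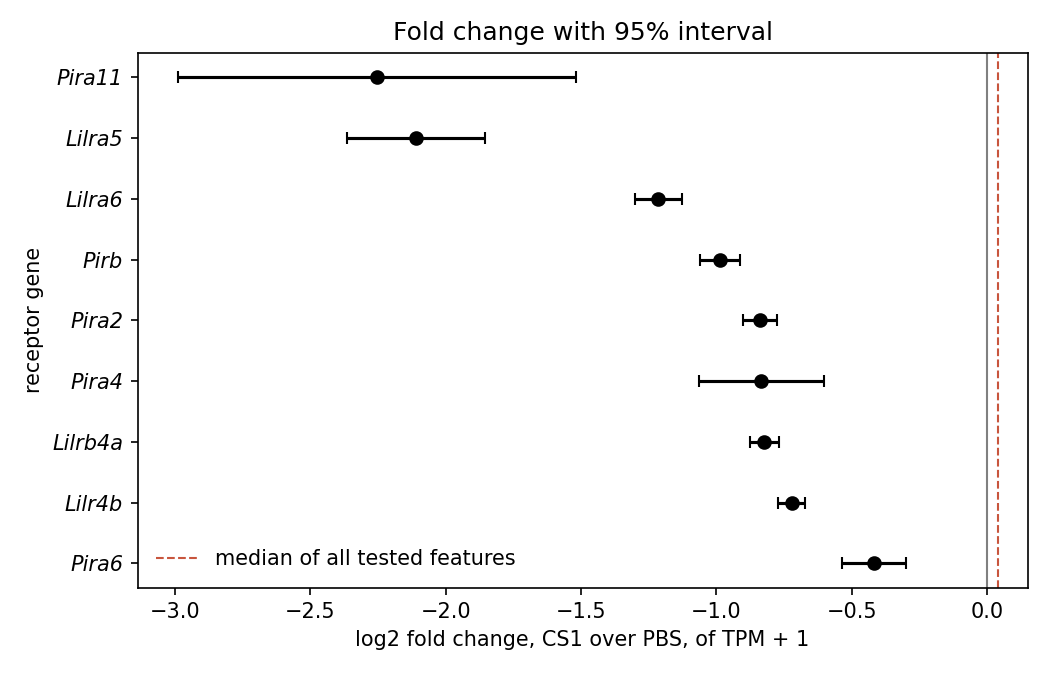
Log2 fold change, CS1 over PBS, of TPM + 1 for the 9 receptor genes, with points for the limma estimate, bars for the 95% interval and a dashed line for the median of all tested features (0.04). Every interval lies below 0, and that of Pira11, from -2.99 to -1.52, is the widest.

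Summed over the 9 receptors, the libraries held 3570 and 3548 TPM in PBS and 1876 and 1897 TPM in CS1. This is 0.362% and 0.360% of the PBS totals and 0.192% and 0.194% of the CS1 totals. The sum fell by 47.0%, from 3559 ± 15.4 to 1886 ± 14.8 TPM (SD, n = 2 each), and was given no test because the members were chosen with results known. The inhibitory class with Lilr4b (3 genes) fell by 45.9%, from 2634 ± 20.9 to 1425 ± 19.3 TPM, and by 47.4% when Lilr4b was left out for its lack of ITIMs. The activating class (6 genes) fell by 50.1%, from 925 ± 5.53 to 462 ± 4.45 TPM. The 7 genes of the PIR group, taken as the Pira genes, Pirb, Lilra5 and Lilra6, fell by 49.7% and the gp49 pair on chromosome 10 by 41.9%.

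The balance between the classes differed little. With Lilr4b counted as inhibitory, the ratio of activating to inhibitory transcripts was 0.348 and 0.354 in PBS and 0.329 and 0.319 in CS1. It was lower in both CS1 libraries. That order does not hold when Lilr4b, which lacks ITIMs, is moved to the activating class. Nor does it hold when Gm14548, a gene model between Pira2 and Lilra6 without a receptor symbol, is counted as activating. Gm14548 was in neither sum and stood at 489 and 484 TPM in PBS and at 314 and 323 TPM in CS1. The small difference between the ratios was not tested. Pirb made up 39.2% and 39.0% of the sum in PBS and 36.5% and 38.1% in CS1. Lilrb4a made up 20.9% and 20.8% in PBS and 22.6% and 21.8% in CS1. Lilr4b made up 14.1% and 14.0% in PBS and 16.2% and 15.9% in CS1, its own level having fallen by less than the sum. Pira11 made up 2.49% and 2.76% in PBS and 1.43% and 0.688% in CS1.

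**Figure D3:**
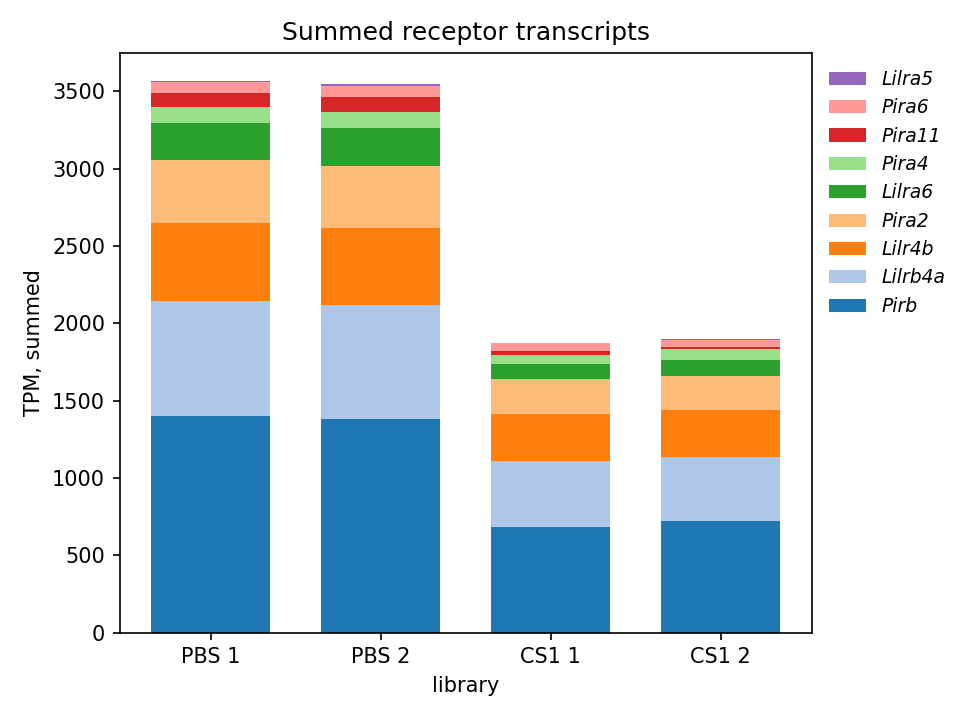
Summed TPM of the 9 receptor genes in each library, as stacked bars that start at 0 with 1 colour for each gene. The PBS bars reach 3570 and 3548 TPM and the CS1 bars 1876 and 1897 TPM, with Pirb the largest part of each.

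In order of level, PBS libraries read Pirb, Lilrb4a, Lilr4b, Pira2, Lilra6, Pira4, Pira11, Pira6 and Lilra5, and no neighbours in that order overlapped between libraries. In CS1 the first 5 places were the same. Pira4 and Pira6 came next, and their CS1 values (52.9 and 65.4 against 54.3 and 50.5 TPM) did not differ beyond their spread. Pira11 came after both, and Lilra5 stayed last.

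Genes of the signalling steps that the receptors use were read from fixed lists. Of the 3 adaptor genes, Fcer1g, the partner chain of PIR-A, fell from 1690 ± 23.0 to 1314 ± 5.15 TPM (SD, n = 2 each; ratio 0.777), and Tyrobp, which encodes the adaptor DAP12, from 3258 ± 48.5 to 2688 ± 20.8 TPM. Hcst, which encodes DAP10, rose from 65.0 ± 1.31 to 75.8 ± 4.57 TPM, but its call was lost without PBS replicate 2 (limma adjusted p = 0.0575) and without a filter (0.125). The log2 fold changes of these adaptor genes were smaller in size than that of any of the 9 receptors, a difference that was not tested. After quantile normalization this no longer held, with -0.46 for Fcer1g and -0.42 for Tyrobp against -0.36 for Pira6.

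Of 9 tested kinase genes 7 were lower, 1 higher and 1 not called, with a median log2 fold change of -0.53. Over all tested features 31.6% were lower and 35.3% higher, with a median of 0.04. Lyn, a Src-family kinase that phosphorylates the tail of PIR-B, stood at 564 and 562 TPM in PBS and at 317 and 315 TPM in CS1, a ratio of 0.561. Fgr, a kinase of the same family, had a ratio of 0.384, and Syk, the kinase that acts downstream of Fcer1g, one of 0.668. Src and Yes1 were below the level for testing.

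The genes of SHP-1 and SHP-2, the phosphatases that ITIMs recruit, changed less than the receptors. Ptpn6, which encodes SHP-1, stood at 676 and 673 TPM in PBS and at 648 and 678 TPM in CS1, and was not called (log2 fold change -0.03; 95% interval -0.09 to 0.04; limma adjusted p = 0.419); its sign turned after quantile normalization (0.08, adjusted p = 0.0169). Ptpn11, which encodes SHP-2, had a log2 fold change of -0.09 (95% interval -0.20 to 0.02; adjusted p = 0.112) and passed after TMM rescaling (-0.13, adjusted p = 0.0313). For Dok3, an adaptor of inhibitory signalling, it was -0.03 (adjusted p = 0.206), and the scalings called it in opposite directions, at 0.09 after quantile normalization (adjusted p = 0.00758) and -0.07 after TMM rescaling (adjusted p = 0.0306). Inpp5d, which encodes the lipid phosphatase SHIP-1, stood at 194 and 193 TPM in PBS and at 209 and 204 TPM in CS1 (log2 fold change 0.09, limma adjusted p = 0.0167), a call lost in several alternatives, such as TMM rescaling (adjusted p = 0.0921). Of the 7 genes in this list 3 were lower, 1 higher and 3 not called, with a median of -0.09. Over all tested features 31.6% were lower and 35.3% higher. The 3 lower genes lie outside the naming rule and are given after their values were seen. Inppl1 fell from 27.3 to 12.1 TPM on average (log2 fold change -1.11, limma adjusted p = 6.58e-05), Dok1 by 0.55 and Dok2 by 0.51 on the log2 scale. In the main fit the intervals of Ptpn6, Ptpn11 and Dok3 held only changes that are small relative to those of the receptors. These intervals rest on 2 libraries in each group and on 1 scaling. After quantile normalization the estimates of Ptpn6 and Dok3 lay above them. The intervals do not show that the levels were equal.

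Among 11 ligand genes 5 were lower, 3 higher and 3 not called (median log2 fold change -0.14). The shares over all tested features were 31.6% lower and 35.3% higher. H2-D1, a classical MHC class I chain, fell from 1605 ± 4.56 to 991 ± 0.573 TPM and its light chain gene B2m from 1449 ± 3.44 to 909 ± 13.5 TPM. H2-K1, the other classical chain in the list, rose from 485 ± 5.96 to 540 ± 2.02 TPM. Fn1, which encodes fibronectin, a ligand of gp49B, fell from 2376 ± 40.0 to 1475 ± 7.11 TPM. Apoe, a ligand of human LILRB4, was outside the naming rule and is given for that role after its values were seen: it stood at 45.1 and 40.7 TPM in PBS and at 83.4 and 85.6 TPM in CS1, a rise with a ratio of 1.97 (limma adjusted p = 4.14e-05).

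Genes linked to LILRB4 signalling in human leukaemia numbered 5, of which 4 were tested, with 2 lower, 1 higher and 1 not called. Against 31.6% lower and 35.3% higher over all tested features, so short a list says little as a set. Plaur, the urokinase receptor gene, fell by 0.11 on the log2 scale (limma adjusted p = 0.0115), a call lost in several alternatives, with 0.00 after quantile normalization (adjusted p = 0.967). The NF-kB subunit gene Rela fell from 99.0 ± 4.70 to 71.4 ± 2.32 TPM, while Nfkb1 stood at 189 ± 3.35 and 196 ± 3.63 TPM and was not called (adjusted p = 0.12; 0.00286 after quantile normalization). Plau rose from 6.11 ± 0.141 to 8.28 ± 0.396 TPM, a call lost without a filter (adjusted p = 0.0551), after quantile normalization (0.075) and without CS1 replicate 1 (0.0548). Arg1 was at most 0.80 TPM in any library and was not tested.

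Other receptors, from a fixed list headed as ITIM receptors, did not move as a block. The list was not checked against mouse protein sequences, so some members may lack an ITIM. Of 19 tested genes 12 were lower, 6 higher and 1 not called, with a median log2 fold change of -0.28. The shares over all tested features were 31.6% lower and 35.3% higher. Sirpa, the receptor for CD47, stood at 508 and 504 TPM in PBS and at 289 and 290 TPM in CS1, a ratio of 0.573 that lies near those of Lilrb4a and Pira2. Clec12a, an inhibitory lectin of myeloid cells, went the other way, from 251 and 253 TPM to 519 and 504 TPM, and Cd33 rose from 376 ± 3.75 to 438 ± 9.28 TPM. Cd300lf fell by 0.28 on the log2 scale. Outside the naming rule and picked after their values were seen, Pilra (-1.22), Ceacam1 (-1.12) and Cd300a (-0.85) fell within the range of the receptors. The 6 higher genes include Siglecg (1.14) and Cd72 (1.26).

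**Figure D4:**
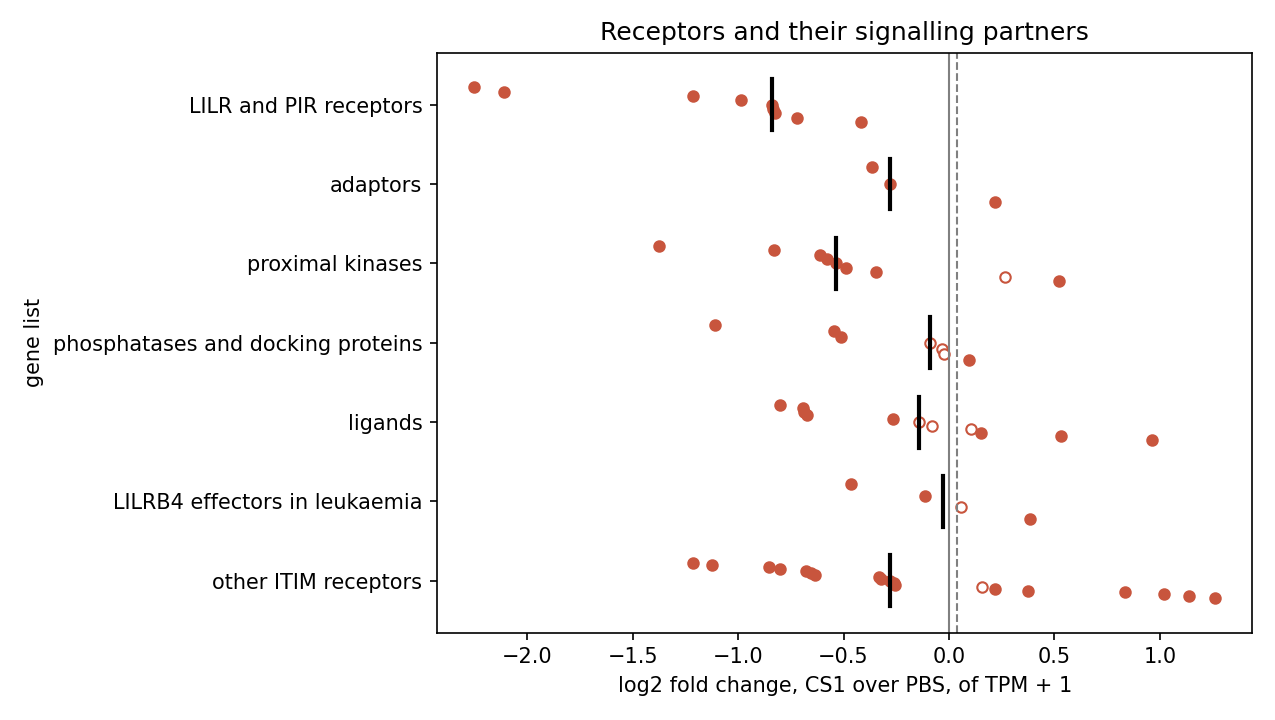
Log2 fold change, CS1 over PBS, of TPM + 1 for the 9 receptors and the tested members of the 6 partner lists; filled points passed limma's adjusted p under 0.05, open points did not, black bars are list medians and the dashed line is the median of all tested features. The receptors all lie below 0 (median -0.84), whereas every partner list has members on both sides.

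Position was examined because Pirb, Pira2 and Lilra6 lie close together; Pira4, Pira6 and Pira11 were not placed here, and Lilra5 lies farther off, beyond Lair1 and Leng8. Gm14548, a gene model between Pira2 and Lilra6 that was singled out for its place after its values were seen, stood at 489 and 484 TPM in PBS and at 314 and 323 TPM in CS1 (log2 fold change -0.61, limma adjusted p = 1.16e-05). The nearest tested protein-coding gene on the side of Pirb was the ribosomal protein gene Rps9, 4512 bases away, with means of 3781 ± 2.87 (PBS) and 3928 ± 68.7 (CS1) TPM (log2 fold change 0.05, adjusted p = 0.055; it passed in 3 alternatives, at 0.0422 to 0.0487, and was -0.02 after quantile normalization). The next, Tsen34, a tRNA splicing gene, fell by 0.38. On the side of Lilra6, Lair1, an inhibitory collagen receptor that belongs to the same leukocyte receptor complex, fell from 74.8 ± 1.12 to 47.1 ± 1.35 TPM, and Leng8 rose by 0.15 on the log2 scale. Within 600 kb on either side of the Pirb start, a window chosen after seeing the data, 17 other protein-coding genes were tested. Of these 9 were lower, 5 higher and 3 not called, with a median log2 fold change of -0.16. The lower ones include Gm14548, whose transcripts hold 17.66% of the words of Pirb, so its value depends on how shared reads were divided. The shares over all tested features were 31.6% lower and 35.3% higher. The lowest of these 17 was Tarm1, an activating receptor of myeloid cells, at -1.54, named after its value was seen.

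Around the gp49 pair there was no other tested protein-coding gene within 600 kb. The nearest were Ascc3, 629147 bases before Lilr4b, which fell by 0.70 on the log2 scale (limma adjusted p = 0.000249), and Gopc, 839239 bases after Lilrb4a, which fell by 0.59. Farther out, Nus1 fell by 0.19, a call lost without PBS replicate 1 (adjusted p = 0.104), without either CS1 replicate (0.0643 and 0.0957) and without a filter (0.0818), and Hace1 had a log2 fold change of -0.24 and was not called (adjusted p = 0.059), though it passed in 3 alternatives, such as TMM rescaling (0.0395).

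**Figure D5:**
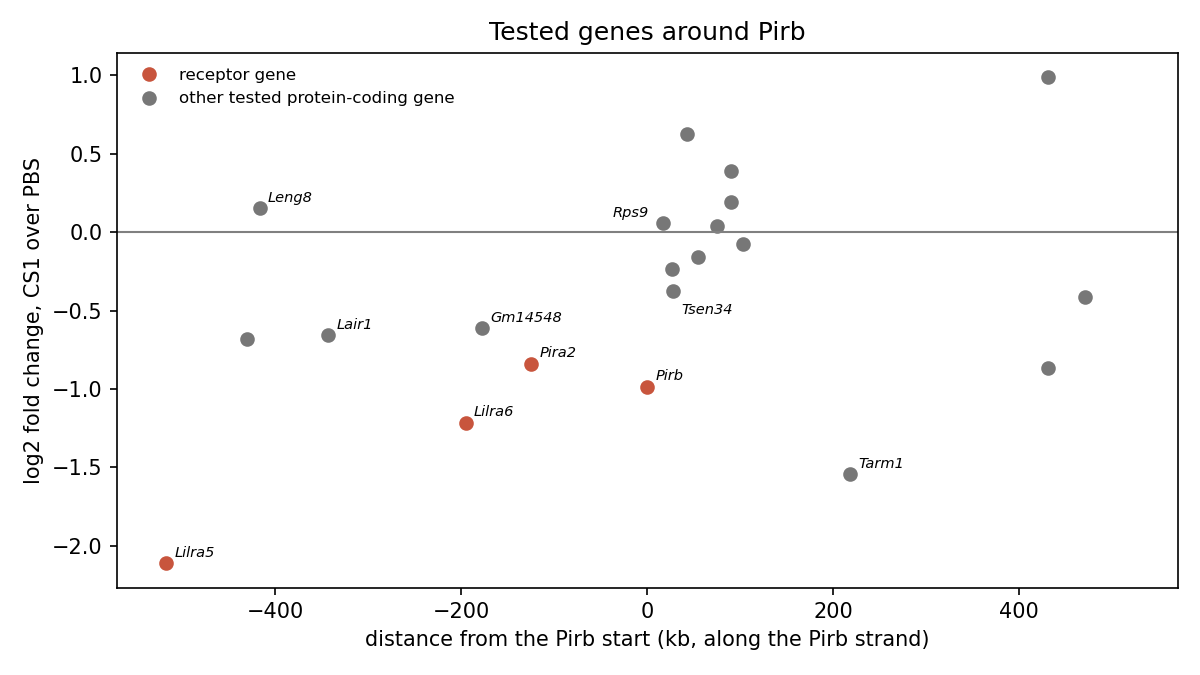
Log2 fold change, CS1 over PBS, of tested protein-coding genes against the distance of their start from the Pirb start in kb along the Pirb strand, with receptor genes in red, other genes in grey and names only for genes given in the text. The 4 receptors lie between -0.84 and -2.11, while the genes close to 0 kb on the other side of Pirb lie on both sides of no change.

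Among 3500 features of at least 50 TPM on average, the profiles over the 4 libraries that lay nearest to Lilrb4a (Euclidean distance of centred log2 values) were Ctsb, a lysosomal cathepsin (distance 0.0156), Apaf1, the apoptosome gene (0.0163), Acsl5, an acyl-CoA ligase gene (0.0190), Lyn (0.0224) and App, the amyloid precursor gene (0.0239). Their ratios of CS1 to PBS were 0.560, 0.566, 0.562, 0.561 and 0.566, against 0.565 for Lilrb4a. Within the family Pira2 lay at a similar distance from Lilrb4a (0.0200), nearer than its genomic neighbour Lilr4b (0.103). Nearest to Pirb were Pi16 (0.0188), S1pr5, a sphingosine phosphate receptor gene (0.0296), Ly9, a SLAM-family receptor gene (0.0382), the glucose transporter gene Slc2a1 (0.0405) and Hexa, a lysosomal hexosaminidase gene (0.0446), with ratios from 0.490 to 0.511. With 4 libraries in 2 groups such likeness reflects mainly the size of the difference between groups.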

How the data were processed

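Poly(A) RNA of 4 spleen cell libraries was read from 1 deposited table. Per the submitters' processing notes STAR, RSEM and the genome build mm10 were used, without versions or roles, and no annotation is named. The values were taken as TPM made by the authors. No header or label names the unit, which was inferred from column sums between 977973 and 986345 and from the mention of RSEM. TPM keeps no read depth, so intervals for counting error could not be computed.

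Groups were taken from the sample titles. After transformation to log2(TPM + 1), the 11866 features that reached 1 TPM in 2 or more libraries were fitted in limma 3.58.1 (R 4.3.3, variance trend on, no covariates). P-values were adjusted by Benjamini-Hochberg over all of them, with a call under 0.05. The fit was also run on simulated data in which only a small part of the features changed. In the real data 67% were called, so that run does not show how the calls behave here. Trimmed mean of M values (TMM) factors, used to rescale the libraries, were computed from TPM with the published formula. Sums were taken on TPM. Promoter windows were aligned end to end with free end gaps in Biopython 1.88. All receptor rows were named, and in each partner list the 4 tested members with the highest mean TPM. The 5 nearest profiles of Lilrb4a and of Pirb, without predicted symbols, and the 2 nearest tested genes on each side of a locus were named as well; some genes that these rules take are not reported here. Alternatives changed the pseudocount, filter, scaling, variance model, replicate block and libraries. The receptors and lists were chosen with earlier results of these data known.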

Additional observations from a re-analysis of the deposited data

How the results depend on the processing

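Depth is unknown, so how far counting error limits the low members, such as Lilra5, could not be measured. All 9 receptors kept their direction in each of 12 alternatives (other pseudocounts, filters, scalings, variance model, replicate block, or 1 library left out), and 106 of 108 such values kept their call; the exceptions were Pira4 and Pira11 without a filter. The count of receptors called lower was 9 in the fit with the replicate block and 9 in each fit without 1 library, and the count called higher was 0 throughout. The labels share only replicate numbers between groups, and the deviations of same-numbered libraries from their group means correlated at 0.0219 across features. For the summed log2 ratio of all receptors, -0.92, TMM rescaling gave -0.96 and quantile normalization -0.85. For the inhibitory class, -0.89, these were -0.93 and -0.84, and -0.93 without Lilr4b, an alternative chosen after seeing the data. For the activating class, -1.0, they were -1.04 and -0.89. Partner lists had 31 members called lower and 13 higher, and 7 higher without a filter, where 24497 features share the adjustment. Over all features 31.6% were lower and 35.3% higher in the main fit, and 11.3% and 11.4% without a filter. Reversed signs, each below 0.1, were Ptpn6 (0.0835), Dok3 (0.0932), Plaur (0.0014) and Rps9 (-0.0236) after quantile normalization and Ptpn6 without CS1 replicate 1 (0.00629, against -0.0579 without CS1 replicate 2).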
